A study of Arabidopsis thaliana with 9 samples.

Results

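Mitochondrion-encoded transcripts are the RNAs read from the small genome inside plant mitochondria. They were followed here in Arabidopsis seedlings that carry mutations in ascorbate (vitamin C) synthesis. The group was taken as every probe set that the array annotation pairs with 1 gene of the mitochondrial genome and no other gene. It holds 23 of the 22810 probe sets on the ATH1 array, from 16 of the 32 protein-coding mitochondrial genes in the gene table and of the 13350 genes that the annotation pairs with a probe set of their own. Of these, 15 probe sets belong to 8 nad genes of respiratory complex I, 7 of them to nad1 and 2 to nad5. A further 2 belong to cox1 and cox2 of complex IV, 4 to the cytochrome c maturation genes ccmB, ccmFC, ccmFN1 and ccmFN2, and 2 to matR and mttB. No atp, ribosomal protein, cob or orf gene had a probe set of its own in this annotation. Another 12 probe sets are paired with a mitochondrial gene together with some other gene, in 11 cases a nuclear locus, and were kept apart. Of the 23, 5 have names ending in _s_at, among them those of nad6, ccmFC and mttB. That they match 1 gene alone rests on the annotation and was not checked.

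Total RNA of whole plants was hybridised to 9 arrays, 3 for each of 3 genotypes. The first genotype is vtc2-1, an EMS-induced mutation in the Col-0 background. The vtc1-1 mutation is given by the labels with a stock code and without its background, and the Col-0 plants are wild type. All plants were grown for 14 days on agar plates to developmental stage 1.04. VTC1 makes GDP-mannose and VTC2 catalyses the committed step of the L-galactose route to ascorbate, so both mutants are known for low ascorbate. Each mutation is represented by 1 line. The labels do not say whether the 3 samples of a genotype came from separate sowings, so a p-value covers no more than how these samples vary, which may be technical.

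Plant mitochondria keep only a small part of the genes for their respiratory chain. The rest of the subunits of complex I, complex IV and the other complexes are encoded in the nucleus and imported, so each complex is assembled from both sources. GLDH, the enzyme that makes ascorbate from L-galactono-1,4-lactone, sits in the inner mitochondrial membrane and is required there for building the membrane arm of complex I. Mitochondrial genes are transcribed by phage-type RNA polymerases, and their RNAs are spliced, edited and trimmed by many nuclear-encoded proteins. The transcripts of nad1, nad2 and nad5 are joined from separately transcribed pieces. Plant mitochondrial RNAs carry A tails mainly while they are being degraded, and the labelling used here primes on A tails. The signals therefore reflect the tailed portion of these RNAs, and in whole-plant RNA a change in the number of mitochondria or of cells cannot be told apart from a change of RNA per cell.

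Across the series, every array had been scaled to the same trimmed mean signal of 100.01 (arbitrary units). Col-0 replicate 3 stood apart from the other Col-0 arrays, with correlations of 0.874 and 0.889. Its correlations with mutant arrays were 0.916 to 0.931, against 0.888 to 0.926 for Col-0 replicate 1 and 0.896 to 0.931 for Col-0 replicate 2. Leaving out replicate 3 raised the share of all tested probe sets with an unadjusted limma p under 0.05. That share went from 6.28% to 15.4% in vtc2-1 and from 4.13% to 12.6% in vtc1-1 against Col-0. For the main values that replicate 3 moves, those without it are given as well. No probe set is paired with VTC1 or VTC2 in the annotation used, so the genotype labels were not checked on those genes. The 5 leaf markers written for these plants had no probe set either. Of the 5 root markers, PYK10, a root beta-glucosidase, had signals of 1725.7 to 4405.9 over the 9 arrays, and AT1G62500 had 68.7 to 110.7.

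A probe set was tested when its signal exceeded the 40th percentile of its array, which lay between 28.3 and 30.4, in at least 3 of the 9 arrays. By that rule 12 of the 23 mitochondrial probe sets, from 10 genes, were tested. They are 3 probe sets of nad1 and 1 each of nad4, nad4L, nad6, nad9, cox1, cox2, ccmFC, ccmFN1 and mttB. Of these, 7 exceeded the percentile on all 9 arrays. The other 11 probe sets had signals between 1.13 and 48.6, and only 5 of their 99 signals exceeded the percentile. Over the 27 bacterial control probe sets of the array the highest signal was 28.2 and the array medians ran from 1.56 to 3.88. The untested probe sets leave nad2, nad5, nad7, ccmB, ccmFN2 and matR, the maturase gene that lies in a nad1 intron, without a tested probe set. From 8 to 13 of the 23 exceeded the percentile on an array, with 10, 10 and 11 in the vtc2-1 arrays, 13, 11 and 12 in the vtc1-1 arrays, and 12, 8 and 9 in the Col-0 arrays.

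**Figure D1:**
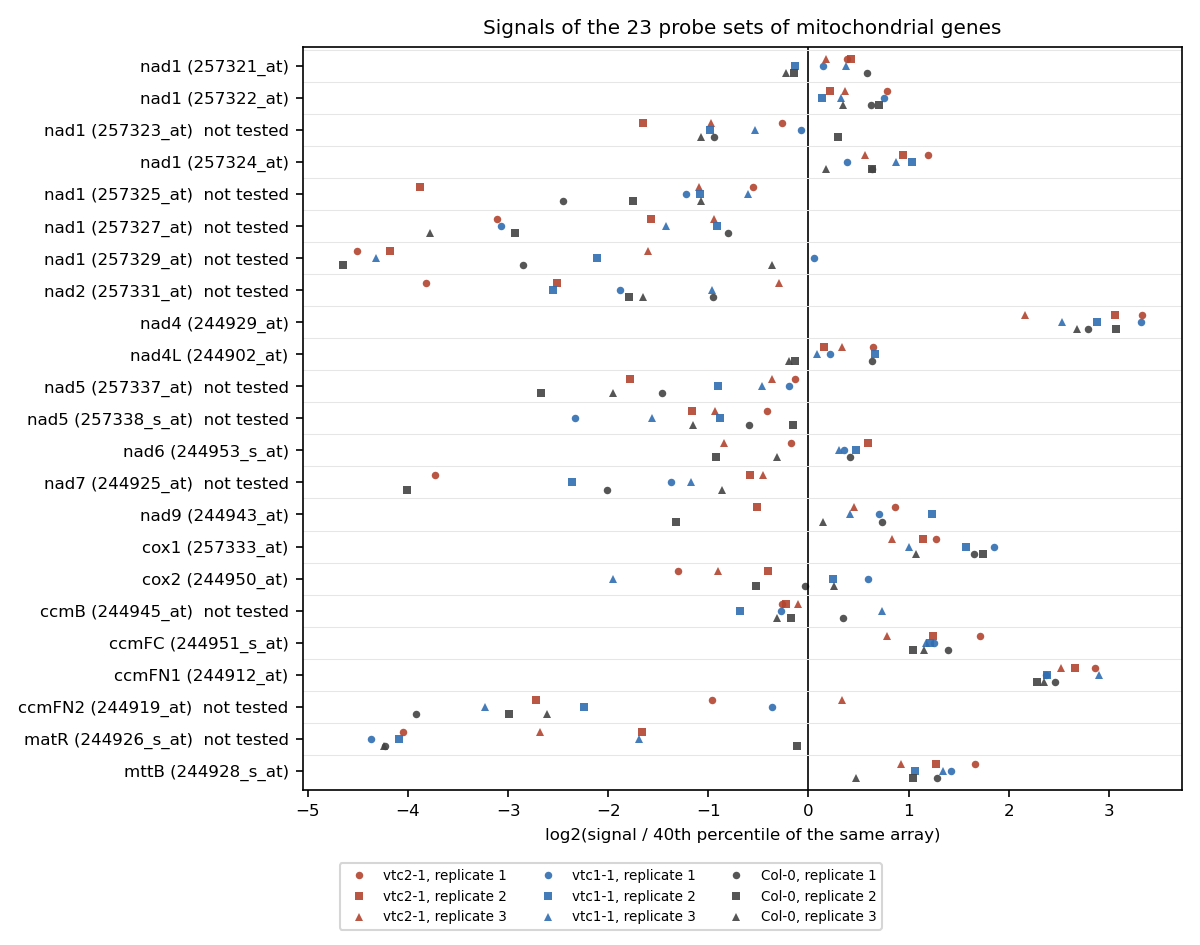
Log2 ratio of each signal to the 40th percentile of its own array, for all 23 probe sets of mitochondrial genes (rows) in the 9 arrays (colour: genotype, shape: replicate). The vertical line marks the percentile, and rows named "not tested" exceeded it on fewer than 3 arrays, as did 11 of the 23.

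No mitochondrial probe set passed the test for a change between genotypes. With limma and Benjamini-Hochberg adjustment over 14603 tested probe sets, 0 of 12 passed an adjusted p of 0.05 for vtc2-1 against Col-0, where 0.00685% of all tested probe sets did. The count was 0 of 12 for vtc1-1 against Col-0, against 0% of all, and 0 of 12 for vtc2-1 against vtc1-1, against 0.00685% of all. At an unadjusted p under 0.05 the 36 limma tests of members also gave 0 calls, where 6.28% of all tested probe sets passed for vtc2-1 against Col-0, 4.13% for vtc1-1 against Col-0 and 3.61% for vtc2-1 against vtc1-1. The adjusted p-values of members ran from 0.805 to 0.998. Differences are given below as log2 with the standard error of the limma fit, and signals on the linear MAS5 scale in arbitrary units.

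The spread between arrays of the same genotype limits how small a difference could be seen. The SD of log2 signals within genotypes had a median of 0.35 over the 12 members, against 0.29 over all tested probe sets. It was lowest for ccmFN1, at 0.22, and highest for cox2, at 0.87. The 95% interval of the difference stayed within a 2-fold change either way for 6 of 12 members in vtc2-1 against Col-0, where 74.6% of all tested probe sets did. The same held for 9 of 12 in vtc1-1 against Col-0, with 76.4% of all, and for 9 of 12 in vtc2-1 against vtc1-1, with 76.7% of all. For a member whose interval reaches past 2-fold, a change of that size is still within the interval.

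Complex I accepts electrons from NADH, and its mitochondrion-encoded subunits are membrane-arm proteins (nad1, nad4, nad4L, nad6 among them) and matrix-arm proteins (nad7, nad9). The nad1 probe set 257324_at gave signals of 67.4, 58.5 and 44.1 in the vtc2-1 arrays, 37.4, 60.1 and 53.8 in the vtc1-1 arrays, and 47.0, 43.8 and 32.7 in the Col-0 arrays. The vtc2-1 arrays overlapped the Col-0 arrays only in that their lowest value lay below the highest Col-0 value. The means were 56.7 ± 11.8 in vtc2-1, 50.4 ± 11.7 in vtc1-1 and 41.2 ± 7.51 in Col-0 (SD, n = 3 each). By limma the log2 difference from Col-0 was 0.46 ± 0.27 in vtc2-1 (adjusted p = 0.805) and 0.28 ± 0.27 in vtc1-1 (adjusted p = 0.998). Leaving out Col-0 replicate 3 gave 0.30 ± 0.29 in vtc2-1 and 0.12 ± 0.29 in vtc1-1.

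The fitted differences of the other tested nad1 probe sets were not all of the same sign. Probe set 257321_at had 38.3, 40.9 and 33.7 in the vtc2-1 arrays, 31.7, 26.7 and 38.0 in the vtc1-1 arrays, and 45.3, 25.6 and 24.7 in the Col-0 arrays. Its Col-0 arrays spanned the whole range of the mutants, with replicate 1 the highest of all 9. The limma difference was 0.29 ± 0.34 in vtc2-1 (adjusted p = 0.89) and 0.05 ± 0.34 in vtc1-1 (adjusted p = 0.998). Probe set 257322_at ran from 35.3 to 50.5 in vtc2-1, 32.1 to 48.3 in vtc1-1 and 36.8 to 46.7 in Col-0, with differences of -0.07 ± 0.27 in vtc2-1 and -0.16 ± 0.27 in vtc1-1. The fitted differences of the 3 nad1 probe sets thus had different signs, and none passed the test. Leaving out Col-0 replicate 3 gave 0.14 ± 0.37 in vtc2-1 and -0.10 ± 0.37 in vtc1-1 for 257321_at. Where in the nad1 transcript each of them lies was not looked up here.

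For nad4, an antiporter-like subunit of the membrane arm, the vtc2-1 arrays gave 296.0, 253.4 and 134.1, the vtc1-1 arrays 286.9, 215.7 and 169.1, and the Col-0 arrays 209.8, 237.5 and 185.9. The Col-0 values lay inside the range of either mutant. Its differences were 0.04 ± 0.28 in vtc2-1 and 0.06 ± 0.28 in vtc1-1, the 95% intervals running from -0.56 to 0.64 in vtc2-1 and from -0.54 to 0.66 in vtc1-1. A 2-fold difference in nad4 signal therefore lies outside both intervals. The small subunit gene nad4L had 45.8, 33.8 and 37.7 in vtc2-1, 33.2, 46.5 and 31.1 in vtc1-1, and 46.9, 25.8 and 25.3 in Col-0. A single Col-0 array, replicate 1, was above every mutant array, and the others were below all of them. The limma differences were 0.31 ± 0.34 in vtc2-1 (adjusted p = 0.884) and 0.22 ± 0.34 in vtc1-1 (adjusted p = 0.998), and without Col-0 replicate 3 they were 0.16 ± 0.37 in vtc2-1 and 0.06 ± 0.37 in vtc1-1.

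In vtc1-1 the widest differences from Col-0 among the complex I genes were those of nad9 and nad6, which also had the widest spread within genotypes among them, 0.79 for nad9 and 0.59 for nad6 (SD of log2). The membrane subunit gene nad6 had 26.0, 46.0 and 16.7 in the vtc2-1 arrays, 36.8, 40.6 and 36.3 in the vtc1-1 arrays, and 40.3, 14.9 and 23.3 in the Col-0 arrays. The vtc1-1 arrays lay close together, those of vtc2-1 scattered on both sides of them, and of the Col-0 arrays 1 lay within their range and the others below it. Differences from Col-0 were 0.17 ± 0.47 in vtc2-1 (limma adjusted p = 0.957) and 0.65 ± 0.47 in vtc1-1 (limma adjusted p = 0.998). The matrix-arm gene nad9 had 53.6, 21.3 and 40.9 in vtc2-1, 46.8, 69.1 and 39.1 in vtc1-1, and 50.4, 11.3 and 31.9 in Col-0. The low Col-0 value is that of replicate 2, and all 3 genotypes overlapped. With 0.93 ± 0.51 (95% interval -0.18 to 2.05, limma adjusted p = 0.998), vtc1-1 against Col-0 was the largest fitted difference of any tested member, and it depended on single Col-0 arrays, being 0.32 without Col-0 replicate 2 and 1.40 without Col-0 replicate 1. In vtc2-1 the nad9 difference was 0.45 ± 0.51 (limma adjusted p = 0.89).

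**Figure D2:**
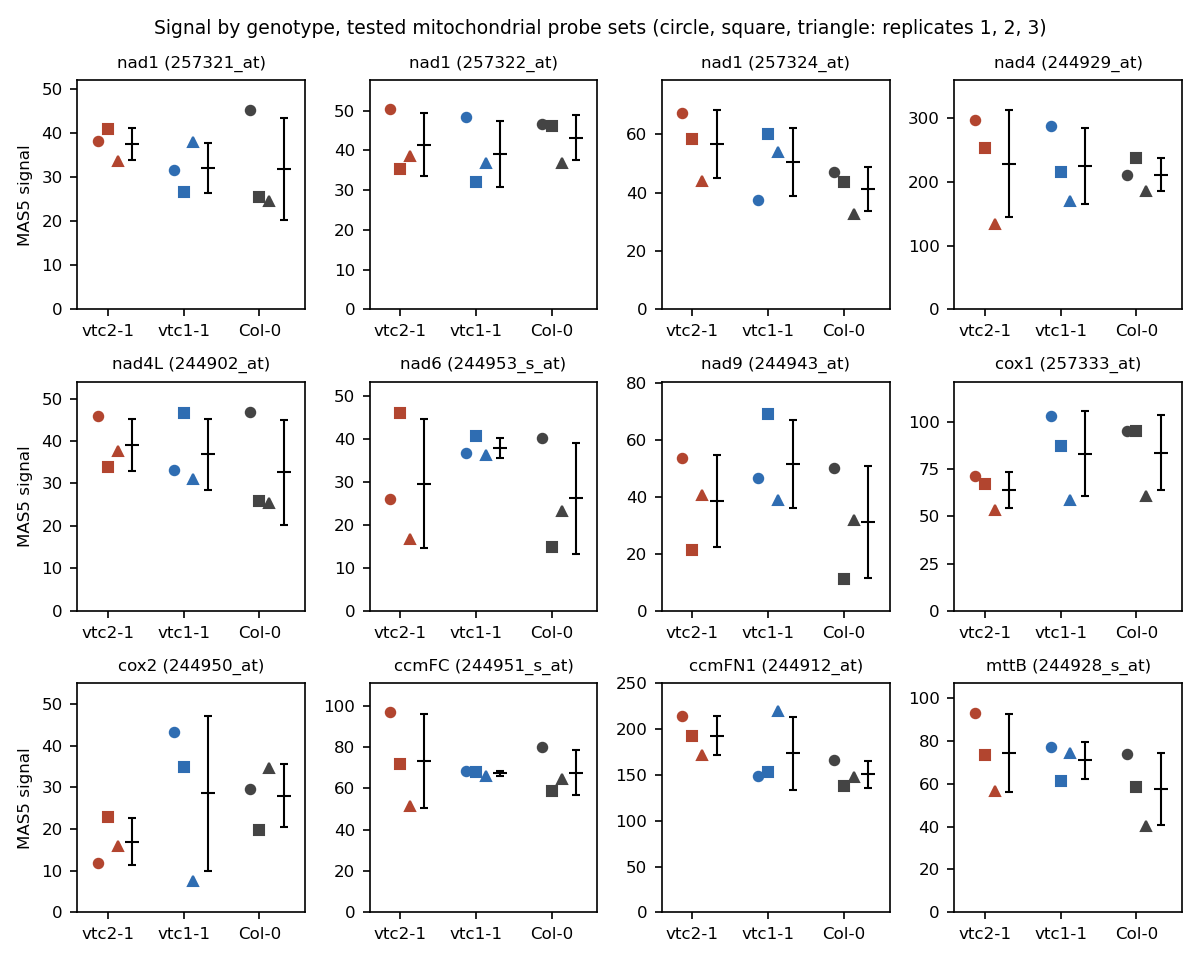
MAS5 signal (linear scale from 0, arbitrary units) of the 12 tested mitochondrial probe sets in each array, by genotype (circle, square and triangle: replicates 1, 2 and 3). Bars beside the points give the mean and SD of 3 arrays. The vtc2-1 points of ccmFN1 lie above all Col-0 points, and in the other panels the genotypes overlap.

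Complex IV, cytochrome c oxidase, reduces oxygen at the end of the chain, and cox1 and cox2 encode its catalytic and copper-carrying subunits. For cox1 the signals were 71.3, 67.4 and 53.2 in the vtc2-1 arrays, 103.4, 87.4 and 58.8 in the vtc1-1 arrays, and 95.3, 95 and 60.7 in the Col-0 arrays. The lowest array of each genotype was replicate 3, and the other vtc2-1 arrays lay below the other Col-0 arrays. The mean was 63.9 ± 9.56 in vtc2-1, 83.2 ± 22.6 in vtc1-1 and 83.7 ± 19.9 in Col-0 (SD, n = 3 each). The difference from Col-0 was -0.37 ± 0.26 in vtc2-1 (limma adjusted p = 0.819) and -0.02 ± 0.26 in vtc1-1 (limma adjusted p = 0.998), the vtc1-1 value becoming -0.23 ± 0.25 without Col-0 replicate 3.

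Leaving out Col-0 replicate 3 moved the cox1 difference in vtc2-1 further below 0. The difference was then -0.59 ± 0.25, with a 95% interval from -1.13 to -0.04, an unadjusted p of 0.0366 and an adjusted p of 0.282 in limma. All vtc2-1 arrays lay below the Col-0 arrays that remained, but the array left out, at 60.7, was the 1 that overlapped them. How many of all tested probe sets lay apart in this reduced comparison was not counted. The gene cox1 gave the 1 unadjusted call among the 12 members there. Of all tested probe sets, 15.4% had an unadjusted limma p under 0.05 there, so the share of members called was no higher than the background. Against vtc1-1 the difference of vtc2-1 was -0.35 ± 0.26 with all 9 arrays (limma adjusted p = 0.998).

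For cox2 the signals were 11.9, 23 and 16 in vtc2-1, 43.2, 34.8 and 7.59 in vtc1-1, and 29.6, 19.7 and 34.6 in Col-0. Only 3 of the 9 arrays exceeded the 40th percentile, none of them vtc2-1, so the fitted values describe signals near the floor and give no measured size. The differences from Col-0 were -0.73 ± 0.68 in vtc2-1 (95% interval -2.20 to 0.74) and -0.27 ± 0.68 in vtc1-1 (95% interval -1.74 to 1.20), with limma adjusted p-values of 0.86 in vtc2-1 and 0.998 in vtc1-1. The vtc1-1 arrays held both the highest and the lowest value of this probe set. The nuclear-encoded subunits of complex IV had positive medians beside these genes, 0.23 in vtc2-1 and 0.16 in vtc1-1 over 7 tested probe sets, with 0 called in either comparison. Leaving out Col-0 replicate 3 gave medians of 0.33 in vtc2-1 and 0.32 in vtc1-1 for them, again with 0 called.

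The ccm genes encode parts of the machinery that attaches heme to c-type cytochromes, and ccmFN1 and ccmFC are parts of its heme lyase module. For ccmFN1 the signals were 214.4, 192.2 and 172.2 in the vtc2-1 arrays, 148.9, 153.0 and 219.4 in the vtc1-1 arrays, and 166.7, 137.6 and 148.0 in the Col-0 arrays. Each vtc2-1 array exceeded each Col-0 array, and the vtc1-1 arrays overlapped both. The mean was 192.9 ± 21.1 in vtc2-1, 173.7 ± 39.6 in vtc1-1 and 150.7 ± 14.7 in Col-0 (SD, n = 3 each). This probe set was the 1 of 12 members whose arrays lay apart from Col-0 on the higher side in vtc2-1, where 6.27% of all tested probe sets did. None of the 12 lay apart on the lower side there, against 4.52% of all. For vtc1-1 against Col-0 none lay apart, where 4.36% of all did on the higher and 3.58% on the lower side, and for vtc2-1 against vtc1-1 none did, where 5.69% of all did on the higher and 4.56% on the lower side. Its log2 difference in vtc2-1 was 0.35 ± 0.19 (95% interval -0.05 to 0.76, limma adjusted p = 0.805) and in vtc1-1 0.19 ± 0.19 (limma adjusted p = 0.998).

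The ccmFN1 difference in vtc2-1 was 0.34 ± 0.20 without Col-0 replicate 3 (limma adjusted p = 0.46). For ccmFC the vtc2-1 arrays ran from 51.5 to 96.7, the vtc1-1 arrays from 65.9 to 68.2 and the Col-0 arrays from 58.5 to 79.8. The vtc2-1 range enclosed both others. Its differences were 0.08 ± 0.24 in vtc2-1 and 0.01 ± 0.24 in vtc1-1.

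The gene mttB encodes a TatC-like membrane protein of the twin-arginine transport pathway. Its signals were 92.8, 73.3 and 56.6 in the vtc2-1 arrays, 77.1, 61.1 and 74.3 in the vtc1-1 arrays, and 73.7, 58.4 and 40.2 in the Col-0 arrays. Col-0 replicate 3 was the lowest of the 9, and the genotypes overlapped. The difference was 0.38 ± 0.26 in vtc2-1 (limma adjusted p = 0.816) and 0.34 ± 0.26 in vtc1-1 (limma adjusted p = 0.998). Both were smaller without Col-0 replicate 3, at 0.15 ± 0.25 in vtc2-1 and 0.10 ± 0.25 in vtc1-1. In the gene table ccmFC, nad4 and mttB stand next to each other, and their differences in vtc2-1 were 0.08, 0.04 and 0.38 on the log2 scale.

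The dim probe sets were read only as signals near the floor of the array. Of the 2 nad5 probe sets, which serve another trans-spliced membrane-arm gene, 257337_at had 26.7, 8.84 and 23.3 in vtc2-1, 25.0, 15.7 and 21.3 in vtc1-1, and 11, 4.45 and 7.47 in Col-0. All vtc1-1 arrays lay above all Col-0 arrays, as in 4.36% of tested probe sets, and every value was below the 40th percentile. The share among untested probe sets was not counted. The other nad5 probe set, 257338_s_at, had 22.0, 13.6 and 15.6 in vtc2-1, 5.70, 15.9 and 9.90 in vtc1-1, and 20.1, 25.4 and 13 in Col-0. The vtc1-1 arrays overlapped the Col-0 arrays here and held the lowest values. Some values exceeded the highest bacterial control of their own array, such as 26.7 against 16.4 in vtc2-1 replicate 1, and others did not. With every value of both probe sets below the 40th percentile of its array, no fold is given and no change is read from them.

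For ccmFN2, which with ccmFN1 makes up a protein that is undivided in most plants, the signals were 15.1, 4.60 and 37.7 in vtc2-1, 22.3, 6.20 and 3.13 in vtc1-1, and 2.00, 3.56 and 4.73 in Col-0. Only vtc2-1 replicate 3 exceeded the percentile, and 6 of the 9 arrays lay below the 20th percentile, so no fold is given. The nad2 and nad7 probe sets stayed below the 40th percentile on all 9 arrays, nad2 between 2.08 and 24.3 and nad7 between 1.76 and 21.8. The matR signals lay between 1.39 and 26.1, and those of ccmB between 18.3 and 48.6, with 2 arrays above the percentile. The remaining 4 nad1 probe sets spanned 1.13 to 34.7 over all arrays.

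**Figure D3:**
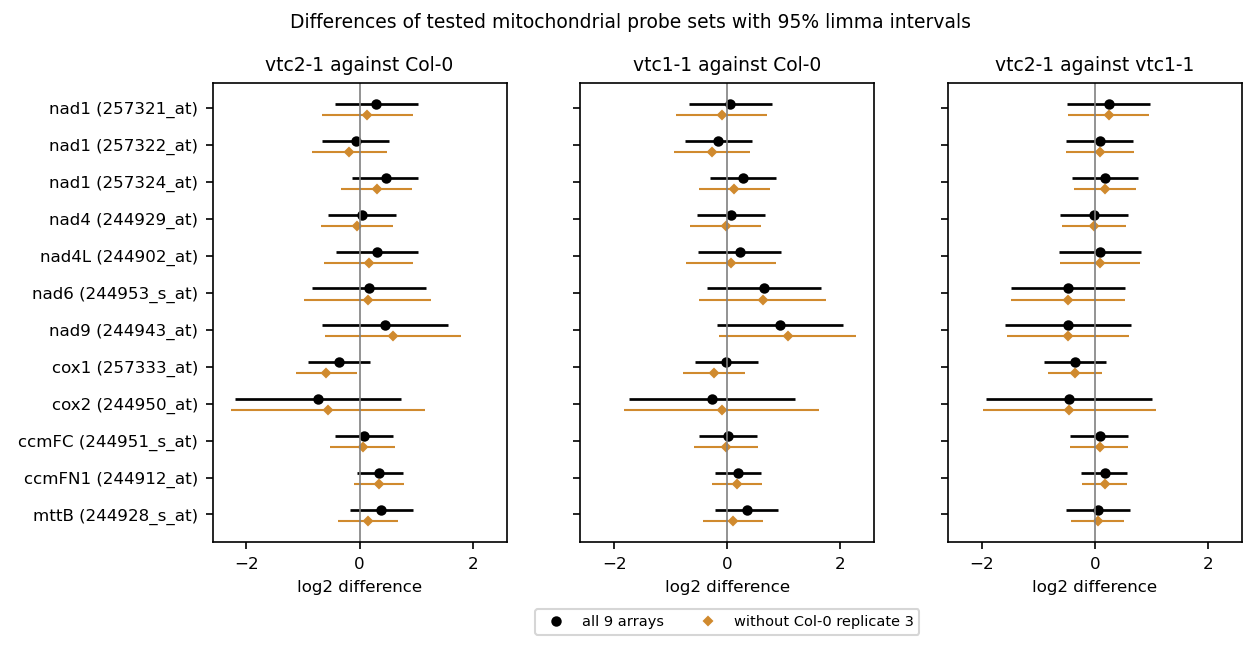
Log2 difference with its 95% limma interval for the 12 tested mitochondrial probe sets in the 3 comparisons, with all 9 arrays (black) and without Col-0 replicate 3 (orange). With all 9 arrays every interval includes 0, and without that array cox1 in vtc2-1 against Col-0 does not (-1.13 to -0.04).

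Seen over the 12 tested members, more differences from Col-0 lay above 0 than below, but the median moved with the Col-0 array left out. In vtc2-1 it was 0.49 without Col-0 replicate 1, 0.06 without replicate 2 and 0.14 without replicate 3, and in vtc1-1 it was 0.30, 0.11 and 0.02 without the same arrays. The log2 difference was above 0 in 9 of 12 for vtc2-1 against Col-0, where 51.9% of all tested probe sets were, and the median was 0.23 against 0.01 over all. For vtc1-1 against Col-0 it was above 0 in 9 of 12, where 51.2% of all were, with a median of 0.12 against 0.01. The same 9 members lay above 0 in both comparisons, which share their Col-0 arrays, and cox1, cox2 and nad1 probe set 257322_at lay below. Without Col-0 replicate 3 the number above 0 was 8 of 12 in vtc2-1, where 49.3% of all were. In vtc1-1 it was then 6 of 12, where 48.1% of all were. For vtc2-1 against vtc1-1, 7 of 12 lay above 0, with 50.9% of all, and the median was 0.06 against 0.00.

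By role, the 7 tested complex I probe sets had medians of 0.29 in vtc2-1 and 0.22 in vtc1-1 against Col-0, with 6 of 7 above 0 in each. Without Col-0 replicate 3 these medians were 0.15 in vtc2-1 and 0.06 in vtc1-1, with 5 of 7 above 0 in vtc2-1 and 4 of 7 in vtc1-1. For complex IV, cox1 and cox2 lay below 0 in both comparisons, but the vtc1-1 signs of both turned without vtc1-1 replicate 3, to 0.21 for cox1 and 0.51 for cox2. The tested ccm genes had medians of 0.22 in vtc2-1 and 0.10 in vtc1-1. None of these role groups held a called member.

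Within each genotype the 3 arrays lay apart over these genes. The median deviation of the 12 members from their 9-array means was 0.35, 0.12 and -0.17 in vtc2-1 replicates 1, 2 and 3, 0.24, 0.11 and 0.03 in the vtc1-1 replicates, and 0.28, -0.20 and -0.26 in the Col-0 replicates, in log2 units. The array numbered 1 had the highest value within each genotype and the array numbered 3 the lowest. The number of members above their own 9-array median was 9, 6 and 2 in vtc2-1, 8, 6 and 4 in vtc1-1, and 9, 3 and 1 in Col-0. Of the 12 members, 5 had their highest signal in vtc2-1 replicate 1 and 4 had their lowest in Col-0 replicate 3.

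Of 3 other array measures, 5S rRNA had the same order of arrays within every genotype. The 5S rRNA probe set had signals of 143.7, 115.5 and 70.4 in the vtc2-1 arrays, 201.5, 135.1 and 87.1 in the vtc1-1 arrays, and 179.8, 89.7 and 56.3 in the Col-0 arrays, so that the array numbered 1 was again the highest of each genotype and that numbered 3 the lowest. The 25S rRNA signal was 4542, 3595 and 4956 in vtc2-1, 1990, 3250 and 4568 in vtc1-1, and 7015, 2388 and 821 in Col-0, without that order. The log2 ratio of 3 prime over 5 prime control signals is a measure of RNA integrity. It was 0.48, 0.60 and 0.20 in vtc2-1, 0.65, 0.55 and 0.28 in vtc1-1, and 0.31, 0.47 and 0.28 in Col-0. This ratio was highest in replicate 2 of vtc2-1 and of Col-0 and in replicate 1 of vtc1-1. The ratio was lowest in replicate 3 of each genotype, as the members were, and in vtc1-1 its full order was that of the members. Its exact two-sided permutation p was 0.6 for vtc2-1 and 0.4 for vtc1-1 against Col-0, where 3 against 3 arrays allow no p below 0.1. The part of these measures in the members' values was not tested.

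**Figure D4:**
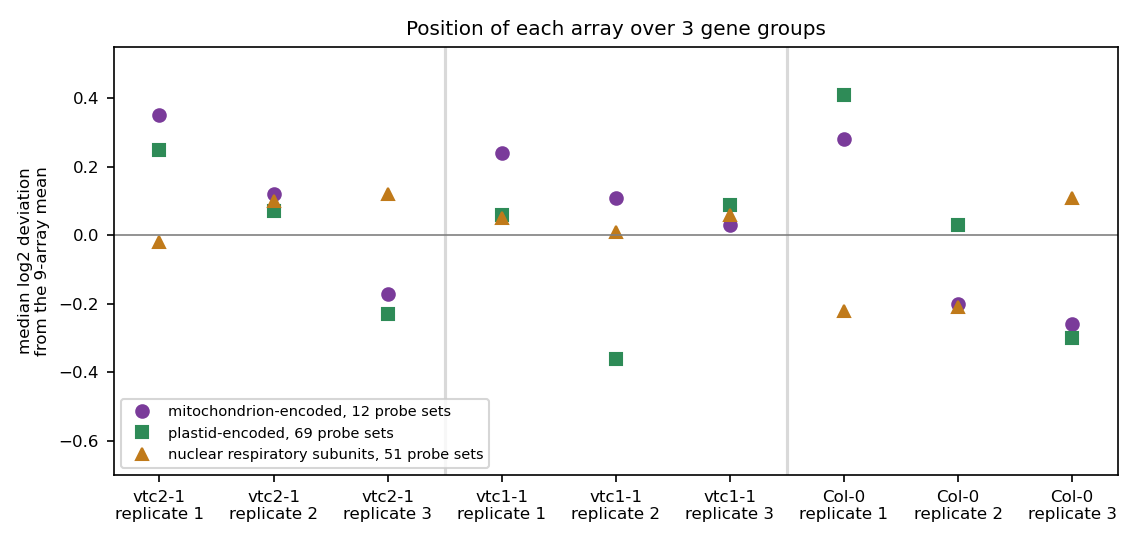
Median log2 deviation from the 9-array mean in each array, over 12 mitochondrion-encoded, 69 plastid-encoded and 51 nuclear respiratory-subunit probe sets. The mitochondrion-encoded points run from -0.26 in Col-0 replicate 3 to 0.35 in vtc2-1 replicate 1, and replicate 1 is their highest point in each genotype.

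Plastid-encoded genes, whose RNAs are also tailed in the course of decay, offer a comparison within the same RNA. Their 69 tested probe sets had median deviations of 0.25, 0.07 and -0.23 in the vtc2-1 arrays, -0.36 to 0.09 in the vtc1-1 arrays, and 0.41, 0.03 and -0.30 in the Col-0 arrays. In vtc2-1 and Col-0 these ran in the same order as those of the mitochondrial genes, and in vtc1-1 they did not, since replicate 2 was the lowest there. Median differences of the plastid genes were 0.00 in vtc2-1 and -0.11 in vtc1-1 against Col-0, with 0 of 69 called in either comparison, beside medians for the mitochondrial genes of 0.23 in vtc2-1 and 0.12 in vtc1-1. In the comparisons that leave out Col-0 replicate 3 the plastid medians were -0.18 in vtc2-1 and -0.29 in vtc1-1, with 16 of 69 above 0 in vtc2-1 and 8 of 69 in vtc1-1, against 33 of 69 in vtc2-1 and 16 of 69 in vtc1-1 with all arrays. Of all tested probe sets, 49.3% in vtc2-1 and 48.1% in vtc1-1 were above 0 without that array, against 51.9% in vtc2-1 and 51.2% in vtc1-1 with all arrays. An unadjusted limma p under 0.05 was then found for 5 of the 69 plastid probe sets in vtc2-1, against 15.4% of all. In vtc1-1 it was found for 16 of 69, against 12.6% of all, and 0 were called after adjustment in either comparison. Whether the groups of genes differ was not tested.

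The nuclear genes for subunits of the same complexes followed another pattern over the arrays. Their 51 tested probe sets had median deviations of -0.02, 0.10 and 0.12 in vtc2-1, 0.05, 0.01 and 0.06 in vtc1-1, and -0.22, -0.21 and 0.11 in Col-0. Col-0 replicates 1 and 2 were low and replicate 3 was not, whereas for the mitochondrial genes Col-0 replicate 1 was high. None of the 51 passed the limma test in any comparison, and an unadjusted p under 0.05 was found for 4 in vtc2-1 against Col-0, for 1 in vtc1-1 against Col-0 and for 0 in vtc2-1 against vtc1-1, where the shares of all tested probe sets were 6.28%, 4.13% and 3.61%. Their median differences were 0.15 in vtc2-1 and 0.14 in vtc1-1 against Col-0, with 40 of 51 above 0 in vtc2-1, where 51.9% of all were, and 42 of 51 in vtc1-1, where 51.2% of all were. When Col-0 replicate 3 was left out, the medians were 0.29 in vtc2-1 and 0.23 in vtc1-1. Of the 51, 19 then had an unadjusted p under 0.05 in vtc2-1, against 15.4% of all, and 15 in vtc1-1, against 12.6% of all, with 0 called after adjustment. Leaving that array out thus raised the medians of the nuclear subunits and lowered those of the mitochondrial genes.

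Among complex I subunits, the 25 nuclear genes with a tested probe set had a median of 0.11 in vtc2-1 and 0.12 in vtc1-1, with every interval within a 2-fold change, and without Col-0 replicate 3 the medians were 0.25 in vtc2-1 and 0.21 in vtc1-1. The nuclear complex I gene with the smallest p in vtc2-1 was AT2G02510, at 0.41 ± 0.18 (limma adjusted p = 0.783). Of the other complexes, SDH1-1, the flavoprotein of succinate dehydrogenase, differed by 0.50 ± 0.20 in vtc2-1 (limma adjusted p = 0.775) and by 0.07 ± 0.20 in vtc1-1 (limma adjusted p = 0.998). The ATP synthase subunit gene AT4G26210 differed by 0.71 ± 0.25 in vtc2-1 (limma adjusted p = 0.722) and by 0.53 ± 0.25 in vtc1-1 (limma adjusted p = 0.998). The largest difference among nuclear subunits was that of AT5G25450 of complex III, at 1.14 ± 0.47 in vtc1-1 (limma adjusted p = 0.998). In vtc2-1 it was 0.98 ± 0.47 (limma adjusted p = 0.793). Its vtc1-1 arrays, at 31.7 to 36.7, lay above its Col-0 arrays, at 10.4 to 28.4, as in 4.36% of all tested probe sets. All its Col-0 signals were below the percentile of the filter. The fitted values thus lie near the floor and give no measured size. None of these genes passed the adjusted threshold.

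GLDH, the enzyme that links ascorbate synthesis to complex I, gave signals of 112.7, 97.5 and 123.9 in the vtc2-1 arrays, 96.1, 57.1 and 155.4 in the vtc1-1 arrays, and 114.0, 76.3 and 128.4 in the Col-0 arrays. The vtc1-1 arrays held both the highest and the lowest value, and the genotypes overlapped. Its difference from Col-0 was 0.10 ± 0.31 in vtc2-1 (95% interval -0.58 to 0.77, limma adjusted p = 0.962) and -0.13 ± 0.31 in vtc1-1 (95% interval -0.81 to 0.55, limma adjusted p = 0.998). A 2-fold difference of GLDH signal lies outside both intervals. Without Col-0 replicate 3 the fitted GLDH difference was 0.25 in vtc2-1, and in vtc1-1 it changed sign, to 0.02.

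Of 32 nuclear factors of mitochondrial RNA written as a list, 8 had a probe set and 3 were tested. AOX1A, the alternative oxidase, and the RNA factors AHG2, AGS1 and RPOTm had no probe set of their own in the annotation. PPR596, a pentatricopeptide repeat protein of mitochondria, had 104.6, 100.4 and 107.1 in the vtc2-1 arrays, 98, 71 and 115.8 in the vtc1-1 arrays, and 46.5, 47.4 and 75 in the Col-0 arrays. All vtc2-1 arrays lay above all Col-0 arrays, as in 6.27% of all tested probe sets. The vtc1-1 arrays overlapped those of Col-0 at 71 against 75. The difference was 0.92 ± 0.23 in vtc2-1 (limma adjusted p = 0.685) and 0.76 ± 0.23 in vtc1-1 (limma adjusted p = 0.998). Without Col-0 replicate 3 the difference in vtc2-1 was 1.15 ± 0.22 and passed the test (limma adjusted p = 0.0381), where 0.835% of all tested probe sets did. The difference in vtc1-1 was then 0.99 ± 0.22 (limma adjusted p = 0.0904). The call for vtc2-1 thus depends on 1 Col-0 array, replicate 3.

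Of 16 genes written as a list of the mitochondrial retrograde response, through which the nucleus reacts to disturbed mitochondria, 4 had a probe set and 2 were tested. AT2G21640, a gene known for its response to oxidative stress, had 43.4, 49 and 40 in the vtc2-1 arrays, 26.4, 22.7 and 26.2 in the vtc1-1 arrays, and 26.7, 22.2 and 31.6 in the Col-0 arrays. The vtc2-1 arrays lay above all others. Of all tested probe sets, 6.27% lay apart on the higher side in vtc2-1 against Col-0 and 5.69% against vtc1-1. All vtc1-1 arrays and Col-0 replicates 1 and 2 were below the 40th percentile. The probe set was thus tested mainly through vtc2-1, the group where it is high. The fitted values lie near the floor and give no measured size. For AT2G21640 the difference in vtc2-1 was 0.73 ± 0.32 against Col-0 (limma adjusted p = 0.783) and 0.81 ± 0.32 against vtc1-1 (limma adjusted p = 0.998), so neither passed. NDB2, an alternative NADH dehydrogenase, differed by 0.04 ± 0.25 in vtc2-1 and by -0.14 ± 0.25 in vtc1-1, and without Col-0 replicate 3 by 0.30 ± 0.24 in vtc2-1 and 0.12 ± 0.24 in vtc1-1.

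**Figure D5:**
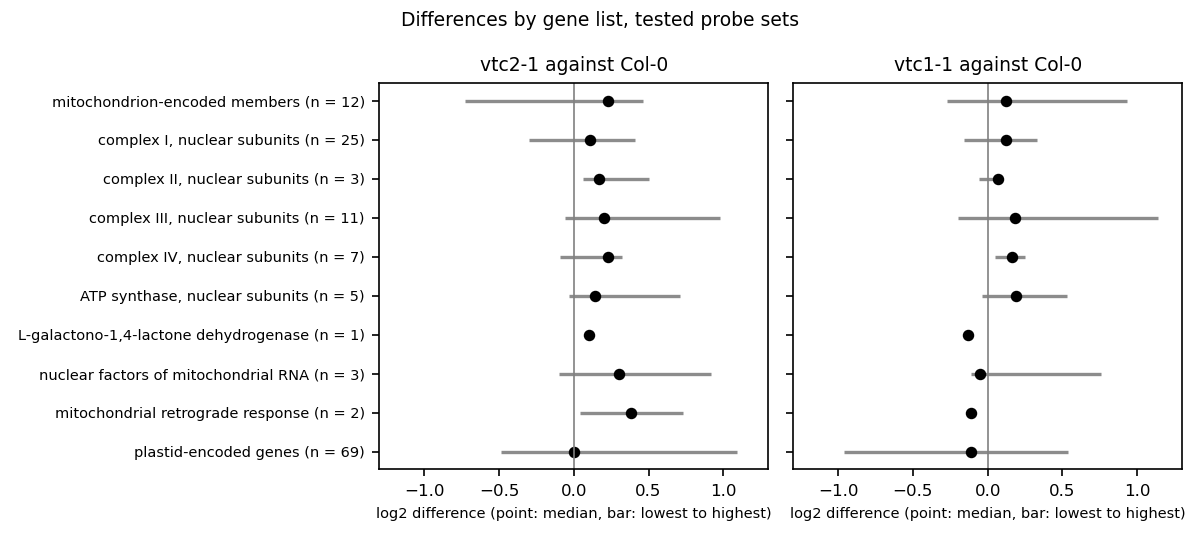
Log2 difference from Col-0 by gene list (point: median, bar: lowest to highest tested probe set) for vtc2-1 and vtc1-1, with the number of tested probe sets in brackets. No probe set of these lists passed the adjusted threshold with all 9 arrays. The mitochondrion-encoded genes span -0.73 to 0.46 in vtc2-1 and -0.27 to 0.93 in vtc1-1.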

How the data were processed

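Per the labels, whole-plant total RNA was biotin-labelled, and 1 ATH1 array of a single colour was used for each sample. The authors deposited intensities on a linear scale, 1 for each probe set. The submitters' processing notes name MAS5 and GCOS, with versions not given in the sources used here. The authors' intensities share a mean of 100.01 after trimming 2% at either end, which removes any change in total RNA per plant. They were used as deposited, and their number, 3 arrays per genotype, limits the precision.

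Signals were log2 transformed with no pseudocount. The 14603 non-control probe sets that exceeded the 40th percentile on 3 or more of the 9 arrays entered a linear model in R 4.3.3 (limma 3.58.1, trended eBayes), with 1 mean per genotype and Benjamini-Hochberg adjustment over all of them at 0.05. Values after ± are standard errors for log2 differences and SDs for signals. In data simulated for vtc2-1 against Col-0 with 14603 probe sets, the fit recovered 46% of 2-fold and 80% of 4-fold changes with 1 false call. The shares simulated for vtc1-1 against Col-0 were 36% of 2-fold and 85% of 4-fold changes, and 4 calls were false. These simulations drew noise independently for each array, with no outlying array such as Col-0 replicate 3. The changed probe sets were drawn from all those tested, so the shares do not give the power for the members.

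Names came from the platform annotation and a TAIR10.1 gene table. Of 22810 probe sets, 13513 had 1 gene, 503 had several and 8794 were not listed. Members and gene lists were chosen with earlier results of these data known. Described array by array were the 6 members with the smallest p in each comparison and the brightest of each role, which gave 10 of 12 tested members. The other 2, ccmFC and nad1 257322_at, and the dim nad5 and ccmFN2 probe sets were chosen after their values were seen. Of nuclear genes, GLDH was named, with some of those of smallest p in their lists for vtc2-1 against Col-0. NDB2 was named as the other tested gene of its list, and AT5G25450 for the largest difference among nuclear subunits. Leaf, seed and flower marker lists had no probe set. Alternatives were another scaling, filter, pseudocount or model, and leaving out each array. Figures were drawn with matplotlib 3.10.9.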

Additional observations from a re-analysis of the deposited data

How the results depend on the processing

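The count of mitochondrial members called stayed at 0 in each comparison under all 10 other settings and with each array left out, where it ran from 0 to 0. The smallest adjusted p of a member in any of them was 0.282. Against Col-0, an unadjusted limma p under 0.05 was found for nad9 in vtc1-1 with array weights (0.0451) and without Col-0 replicate 1 (0.0199). It was found for cox1 in vtc2-1 without Col-0 replicate 3 (0.0366). With no filter it was found for the dim probe sets nad5 257337_at in vtc1-1 (0.034) and ccmFN2 in vtc2-1 (0.0476). Apart from the cox1 setting, the share of all probe sets that did so is not given here. The median difference was 0.06 to 0.49 for vtc2-1 against Col-0, 0.02 to 0.30 for vtc1-1 against Col-0 and -0.14 to 0.18 for vtc2-1 against vtc1-1 when arrays were left out, with 0.49 in vtc2-1 reached without Col-0 replicate 1. Requiring all 9 arrays above the percentile gave medians of 0.08, 0.06 and 0.08 for these comparisons, and no filter gave 0.10, 0.19 and -0.02. Without the tested probe sets ending in _s_at (nad6, ccmFC and mttB) the medians against Col-0 were 0.29 in vtc2-1 and 0.06 in vtc1-1.

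Replicate numbers are shared between genotypes, and deviations of same-numbered arrays correlated at -0.074 to 0.199. For 3 of 9 arrays, the array of the same number was the best correlated in both other genotypes. This check does not decide whether the numbers mark a pairing, and whether they mark a batch is not known. The members' median and 5S rRNA were highest in number 1 and lowest in number 3 of each genotype. With the replicate block 0 members were called, the smallest adjusted p being 0.713. In this balanced design the block cannot move the differences, so the medians of 0.23, 0.12 and 0.06 are the same by construction.

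Of the other settings, 4 can move a fitted difference (pseudocount, quantile normalization, median centring and array weights). Of 144 single-member values under these, 2 turned sign, both with array weights: cox2 in vtc1-1 against Col-0 (0.06) and nad4 in vtc2-1 against vtc1-1 (0.02). Of 216 values with an array of a compared genotype left out, 32 turned sign, in 17 combinations of probe set and comparison. For vtc2-1 against Col-0 the ranges were -0.22 to 0.04 for nad1 257322_at, -0.19 to 0.38 for nad4, -0.21 to 0.54 for nad6, -0.16 to 0.92 for nad9 and -0.14 to 0.32 for ccmFC. For vtc1-1 against Col-0 they were -0.10 to 0.34 for nad1 257321_at, -0.14 to 0.24 for nad4, -0.23 to 0.21 for cox1, -0.74 to 0.51 for cox2 and -0.09 to 0.13 for ccmFC. For vtc2-1 against vtc1-1 they were -0.06 to 0.25 for nad1 257322_at, -0.03 to 0.34 for nad1 257324_at, -0.25 to 0.32 for nad4, -0.03 to 0.27 for nad4L, -1.24 to 0.01 for cox2, -0.15 to 0.31 for ccmFC and -0.13 to 0.23 for mttB. None of these differences passed the limma test in any setting, and the cause was not tested.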

Other observations

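The 12 probe sets that pair a mitochondrial gene with another gene, in 11 cases a nuclear locus, cannot be assigned to either copy. Of these, 8 were tested and 0 passed the limma threshold in any comparison. An unadjusted limma p under 0.05 was found for 1 of 8 in vtc2-1 against Col-0, where 6.28% of all tested probe sets passed. The count was 0 of 8 in vtc1-1 against Col-0, with 4.13% of all, and 2 of 8 in vtc2-1 against vtc1-1, with 3.61% of all. Whether these 8 differ from all tested probe sets was not tested. The differences of these 8 ran from -0.41 to 0.93 in vtc2-1 and from -0.34 to 0.36 in vtc1-1 against Col-0, with medians of 0.20 in vtc2-1 and 0.27 in vtc1-1. The complex III subunit gene MPPBETA, which also serves as a processing peptidase for imported proteins, had 820.2, 831.1 and 879.5 in the vtc2-1 arrays, 726.3, 730.5 and 843.0 in the vtc1-1 arrays, and 640.9, 637.7 and 758.5 in the Col-0 arrays. All its vtc2-1 arrays lay above all Col-0 arrays, as in 3 of the 51 tested nuclear subunits and in 6.27% of all tested probe sets. The MPPBETA difference in vtc2-1 was 0.32 ± 0.14 and did not pass the test (limma adjusted p = 0.783).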
